A study of Mus musculus with 2 samples.

Results

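The motifs of the POU class 4 transcription factors, POU4F1, POU4F2 and POU4F3, were followed across single cells of the embryonic mouse retina. They are the 3 of the 579 motifs in each deposited matrix that carry one of these names. The tissue was wild-type (WT) retina at E14.5, dissociated and profiled by 10x Genomics single-cell ATAC-seq. In this method a transposase cuts open chromatin in nuclei, and the pieces then get a barcode in droplets. There is 1 group with 2 replicate libraries and no mutant, treatment or other stage, and the labels do not say whether they came from separate animals or litters. Every SE and p-value below therefore rests on only 2 libraries, whose spread may be technical. Unless stated, a difference in level between the libraries was taken out, so the spread is that of differences between groups of cells. The study's title concerns a regulatory module behind the making of ganglion cells and the growth of their axons.

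POU4F1, POU4F2 and POU4F3, also called Brn3a, Brn3b and Brn3c, are homeodomain factors with a second DNA-binding unit, the POU-specific domain. In the mouse retina they are known as factors of ganglion cells, the projection neurons whose axons form the optic nerve. Pou4f2 begins as newborn ganglion cells leave the cell cycle and is needed for their differentiation and axon growth. Pou4f1 follows in most of them and shapes their dendrites, while Pou4f3 is used by a smaller set and by the hair cells of the inner ear. All of them bind closely similar AT-rich sequences, so their motifs find many of the same peaks.

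Each value is a count of transposase cuts in all peaks that hold a motif, so it reports the openness of those peaks and not binding by a factor or expression of its gene. A cut is counted once for every motif in its peak, and motifs with like patterns share counts. The matrices sum over all peaks, so the values belong to no single place in the mm10 genome. Cells were kept when they had at least 300000 motif counts and more than the same barcode had in the other library. This left 890 cells of replicate 1, with a median of 3519151 counts, and 1051 cells of replicate 2, with a median of 3523871. They were 36.7% and 34.7% of barcodes and held 98.3% and 97.3% of counts. The libraries had 1828 barcodes in common, and 2 deep barcodes of replicate 2 and 0 of replicate 1 were left out as the shallower copy. No kept cell shared its barcode with a kept cell of the other library.

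The motifs differed in level and kept the same order in both libraries. POU4F3 took the most counts, with a mean share per cell of 0.0854% in replicate 1 and 0.0854% in replicate 2. POU4F1 followed with 0.0681% and 0.0670%, and POU4F2 with 0.0470% and 0.0473%. Among all 579 motifs they ranked 179 and 181, 204 and 205, and 261 and 261. These are middling levels: a cell had a median of 2997.5 and 2984 counts for POU4F3, 2380.5 and 2347 for POU4F1, and 1647.5 and 1662 for POU4F2. The level of a motif depends on how many peaks match it, so the order says nothing about the amounts of the factors.

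The spread across cells was far wider than counting noise. For POU4F1 the lowest, median and highest cells had shares of 0.0363%, 0.0642% and 0.112% in replicate 1, and of 0.0331%, 0.0636% and 0.108% in replicate 2. For POU4F2 they had 0.0297%, 0.0456% and 0.0737% in replicate 1, and 0.0250%, 0.0460% and 0.0726% in replicate 2. For POU4F3 they had 0.0592%, 0.0814% and 0.137%, and 0.0517%, 0.0818% and 0.129%. In each motif the highest cell lay much farther from the median than the middle of the distribution did, since the upper quartile of POU4F1 was only 0.0672% and 0.0671%. The coefficient of variation (CV) beyond counting noise was 16.2% and 15.1% for POU4F1, 13.7% and 12.5% for POU4F3, and 11.6% and 11.3% for POU4F2. The counting noise at the median count was 2.05% and 2.06%, 1.83% and 1.83%, and 2.46% and 2.45%. Spearman correlations of the levels with the cell total were small, between −0.045 and 0.11 over the motifs and libraries. They miss a course that rises and then falls. In the lowest, middle and highest of 5 depth classes POU4F1 took 0.0658%, 0.0698% and 0.0653% of summed counts in replicate 1. In replicate 2 it took 0.0666%, 0.06825% and 0.0640%.

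The distributions had a large lower and a small upper group of cells. A smoothed density of POU4F1 had 2 modes in each library, and the dip between them reached down to 23.1% and 36.5% of the smaller peak. POU4F3 had 3 modes in replicate 1 and 2 in replicate 2, with dips to 38.2% and 47.0%. POU4F2 had 2 modes in each library with a shallow dip, to 69.7% and 69.3%. The bimodality coefficient, computed from the skewness and kurtosis of the log2 shares, was less clear. It was 0.62 and 0.46 for POU4F1, 0.68 and 0.49 for POU4F3, and 0.41 and 0.20 for POU4F2. A uniform distribution has 0.556, so POU4F1 and POU4F3 passed that value in replicate 1 and no member did in replicate 2. Of all 579 motifs, 11 in replicate 1 and 10 in replicate 2 had more than 1 mode that held at least 5% of cells, and 8 had so in both. These 8 included the 3 POU4F motifs, OTX2, PITX3, MYBL1 and TEAD3. Among the last of these, the dip was deepest in MYBL1, a motif of a Myb factor, at 55.8% and 56.9%. In TEAD3 and PITX3 it was 86.9% or more of the smaller peak and so hardly a dip. OTX2, the motif of a factor of photoreceptor and pigment cells, lay at 74.3% and 81.1%.

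A joint POU4F score was the mean over the 3 motifs of the log2 share, centred in each library. A mixture of 2 normal distributions placed 147 of 890 cells of replicate 1 in the upper component, 16.5% with a Wilson 95% interval of 14.2% to 19.1%. In replicate 2 it placed 153 of 1051 cells there, 14.6% with an interval of 12.6% to 16.8%. The intervals overlap and cover counting error only. The components lay 0.44 and 0.42 log2 units apart, a 1.35-fold and 1.34-fold difference. POU4F1 averaged 0.0914% and 0.0887% in the upper component of its own share, against 0.0636% and 0.0631% in the lower. POU4F2 averaged 0.0581% and 0.0588% in the upper component of its own share and 0.0449% and 0.0456% in the lower. POU4F3 averaged 0.109% and 0.108% in the upper component of its own share and 0.0805% and 0.0813% in the lower. The cells of these components are not exactly those of the score. The score, or the motif itself, chose each component, so these differences describe them and carry no test. Cells just inside and just outside the upper component were those around scores of 0.14 in replicate 1 and 0.17 in replicate 2. There, 14 and 34 cells had a posterior of 0.1 to 0.9 and belonged clearly to neither side.

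**Figure D1:**
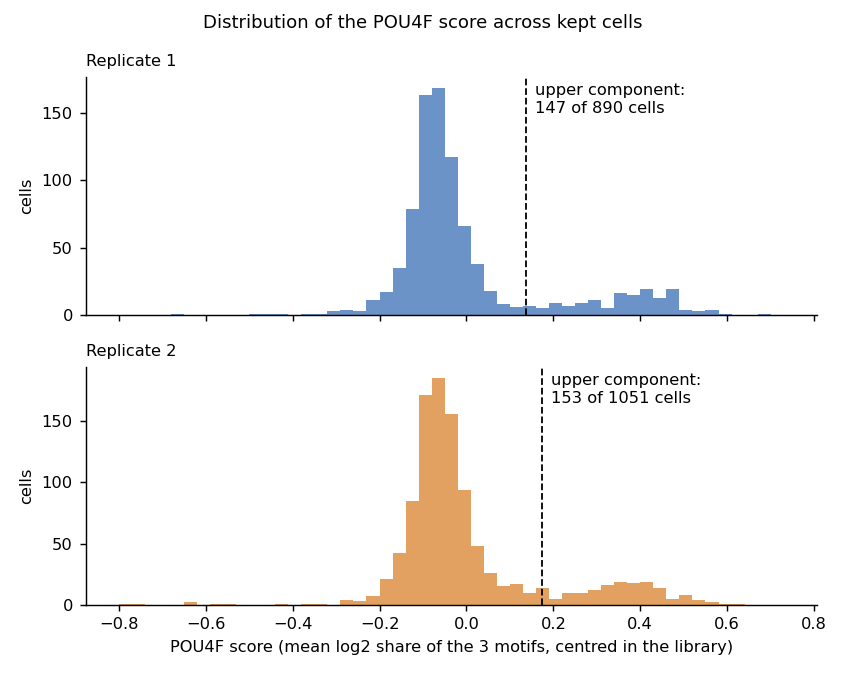
Histograms of the POU4F score in the 890 kept cells of replicate 1 (top) and the 1051 of replicate 2 (bottom); the horizontal axis is the mean log2 share of the 3 motifs centred in the library, the vertical axis the number of cells, and the dashed line marks the lowest score assigned to the upper component. In both libraries a tall narrow peak just below 0 is separated from a low broad hump near 0.4 that holds 147 and 153 cells.

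The same cells were high for all members. Within replicate 1, 155 cells were in the upper component of at least 1 motif and 134 of them (86.5%) in that of all 3. In replicate 2 these were 174 and 128 cells (73.6%). Among the others, 8 cells of replicate 1 and 26 of replicate 2 were high for POU4F1 and POU4F3 but not POU4F2, and 10 and 15 cells were high for a single motif. Across all cells of a library Pearson's r was 0.96 and 0.96 for POU4F1 with POU4F3, 0.93 and 0.90 for POU4F2 with POU4F3, and 0.90 and 0.87 for POU4F1 with POU4F2. Because the cells fall into 2 groups, the correlations were also taken inside each. In the upper component, Spearman's ρ of POU4F1 with POU4F2 was 0.85 and 0.78, against 0.47 and 0.52 in the lower. For POU4F1 with POU4F3 it was 0.95 and 0.94 in the upper component, against 0.72 and 0.68 in the lower. These are descriptions over 147 and 153 upper and 743 and 898 lower cells, whose motif counts share peaks and a cell total.

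The ratio of the motifs also moved. The mean log2 ratio of POU4F1 to POU4F2 was 0.65 and 0.63 in the upper component and 0.50 and 0.47 in the lower. That of POU4F1 to POU4F3 was −0.27 and −0.28 in the upper component and −0.34 and −0.37 in the lower. POU4F1 thus had the widest span between the groups and POU4F2 the narrowest, in each library.

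**Figure D2:**
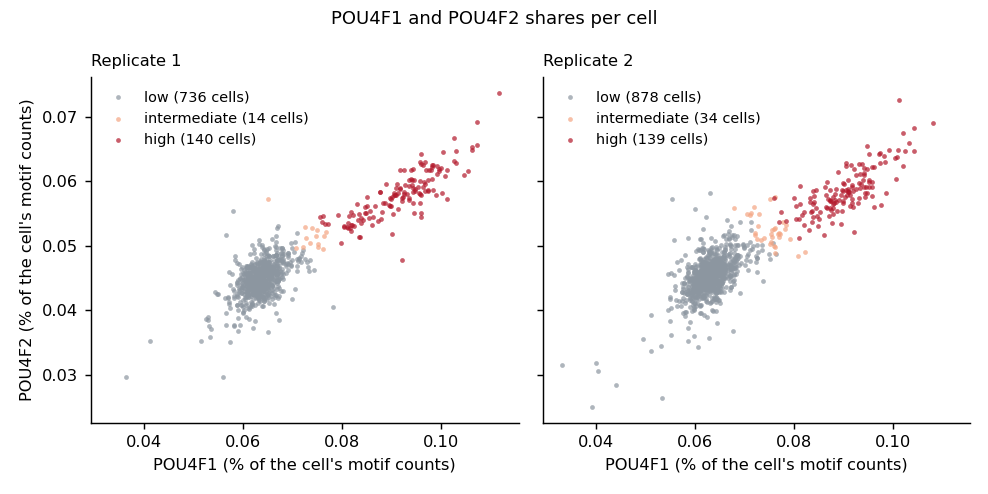
Share of POU4F1 (horizontal) against share of POU4F2 (vertical), both as % of the cell's motif counts, in replicate 1 (left) and replicate 2 (right); each point is a cell, coloured by its posterior of belonging to the upper component as low (736 and 878 cells), intermediate (14 and 34) or high (140 and 139). The high cells form a band that runs up and to the right from a round cloud of low cells, with few cells between them.

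Which motifs varied with the POU4F motifs was first described by the Spearman correlation of each motif's share with the POU4F score across cells. Over the other 576 motifs the median ρ was −0.029 in replicate 1 and −0.023 in replicate 2, and the central 90% lay between −0.27 and 0.27 and between −0.24 and 0.21. Values passed 0.3 for 18 and 9 motifs and −0.3 for 20 and 8. The libraries gave the same sign for 501 of 576 motifs. No p-value belongs to these correlations, because cells are not replicates and the motifs share peaks, depth and base composition.

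Homeodomain motifs were among those of highest ρ. Hoxd8 reached 0.49 and 0.49. MEIS1 (0.43 and 0.36) and MEIS2 (0.39 and 0.34), partners of homeodomain proteins, followed. ISL2, a LIM homeodomain factor of a subset of ganglion cells, had 0.40 and 0.35, and ONECUT1, a factor of horizontal and ganglion cells, 0.35 and 0.34. Others at the top were MAFG::NFE2L1 (0.43 and 0.39), a leucine zipper pair, Arid3a (0.34 and 0.32), a binder of AT-rich DNA, and JUN (0.35 and 0.28), a subunit of AP-1.

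At the bottom stood GC-rich promoter motifs of SP and KLF zinc fingers: KLF14 at −0.41 and −0.38, SP4 at −0.41 and −0.36, SP8 at −0.40 and −0.34, KLF16 at −0.36 and −0.28, and SP3 at −0.35 and −0.29. Pitx1, a homeodomain factor of the same K50 class as the photoreceptor factors OTX2 and CRX, had −0.41 and −0.43, the lowest mean of the 2 libraries, though in replicate 1 KLF14 and SP4 were slightly lower. TFDP1 (−0.37 and −0.33) and E2F6 (−0.35 and −0.29) belong to the cell-cycle family of E2F. SCRT1, a zinc-finger repressor of neurons, had −0.34 and −0.33, and RARA::RXRG, a retinoic acid receptor pair, −0.33 and −0.33.

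These relations did not all hold inside the components. MEIS1 had a ρ of 0.56 and 0.56 within the upper component but 0.085 and 0.039 within the lower, and ISL2 had 0.35 and 0.33 against 0.079 and 0.086. SCRT1 likewise had −0.35 and −0.42 within the upper component and −0.061 and −0.096 within the lower. Among the SP and KLF motifs named, ρ was negative on both sides, for SP4 −0.56 and −0.51 in the upper component and −0.38 and −0.32 in the lower. Hoxd8 also kept much of its relation in the lower component, at 0.36 and 0.43. The split by component was chosen after the data had been seen.

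**Figure D3:**
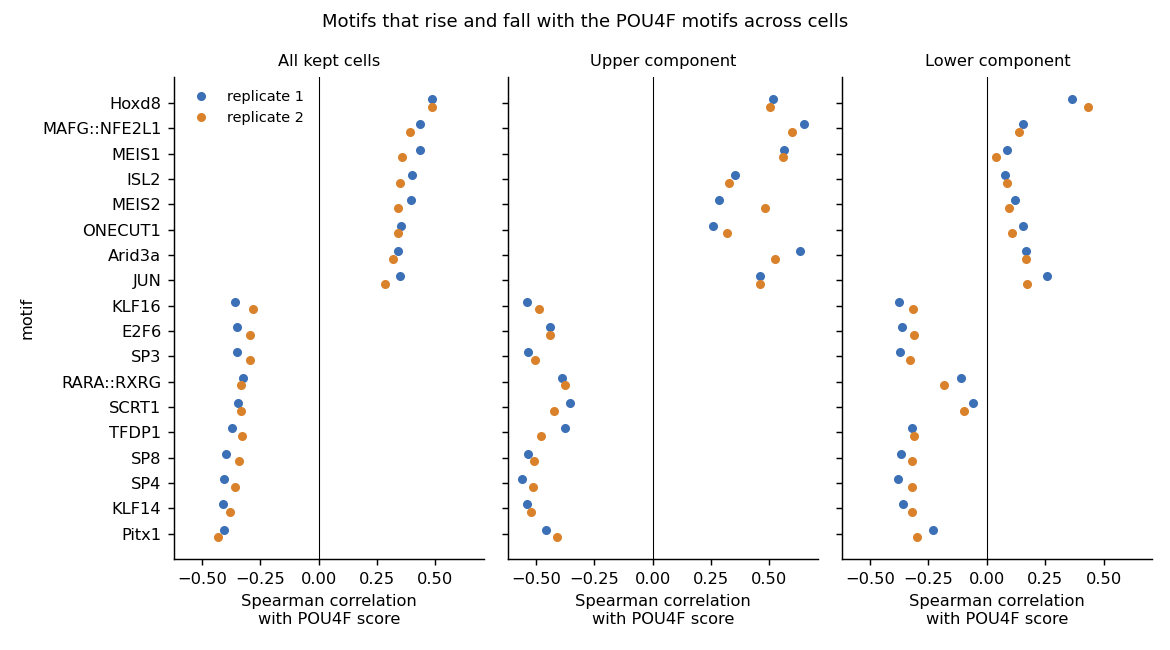
Spearman's ρ with the POU4F score (horizontal axis) for 8 of the 10 motifs of highest and the 10 of lowest ρ (rows), over all kept cells, the upper component and the lower component (left to right); blue points are replicate 1 and orange points replicate 2. ISL2, MEIS1 and SCRT1 lie far from 0 in the upper component and near 0 in the lower, while the SP and KLF motifs lie left of 0 in every panel.

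The comparison across the range of the score used counts summed per library over quintiles of its cells (5 equal groups in order of the score), tested with the edgeR quasi-likelihood F test for the highest against the lowest quintile. Of the 579 motifs 144 (24.9%) were higher in the highest quintile and 197 (34.0%) lower, at an adjusted p of 0.05. The counts contain the POU4F motifs, which chose the quintiles and have no test here: their log2 folds were 0.53 for POU4F1, 0.46 for POU4F3 and 0.41 for POU4F2. Most other called differences were small, as only 24 called motifs higher and 8 lower reached a log2 fold of 0.1. The median log2 fold of the other 576 motifs was −0.0057, which gives their centre and not their size. Without a library term in the model, 53 motifs were higher and 63 lower.

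CUX1, a cut homeodomain factor, had a log2 fold of 0.24 and 0.25 in the separate libraries (fitted 0.24, SE 0.014, edgeR adjusted p = 1.00e-08). ONECUT1, from the same class of homeodomains, had 0.19 and 0.20 (fitted 0.19, SE 0.0076, edgeR adjusted p = 1.69e-10). TGIF2, a homeodomain repressor, and CUX2 followed with fitted log2 folds of 0.18 (SE 0.012) and 0.16 (SE 0.023). Downward, SCRT1 and SCRT2, Scratch family repressors of neurons, stood lowest among called motifs with at least 100 counts per cell. SCRT1 had −0.18 and −0.17 in the libraries (fitted −0.18, SE 0.0096, edgeR adjusted p = 5.35e-09). SCRT2 had −0.18 and −0.17 (fitted −0.18, SE 0.013, edgeR adjusted p = 1.51e-07). ZBTB7B, a zinc finger of T cells, had −0.20 and −0.085, CENPB, a centromere protein, −0.13 and −0.095, and RXRA::VDR, the vitamin D receptor pair, −0.095 and −0.10. TGIF2, CUX2, ZBTB7B and CENPB lost the call without a library term, with edgeR adjusted p-values of 0.18, 0.44, 0.053 and 0.11, against at most 6.28e-05 with it. Over all alternatives that gave a test, TGIF2 and CUX2 were called in 11 of 12, CENPB in 11 and ZBTB7B in 10; with the single libraries included, the log2 fold of ZBTB7B ran between −0.40 and −0.085.

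Motif lists by cell kind were read against these shares of 24.9% and 34.0%. The lowest quintile holds only part of the cells outside the upper component, so these folds need not match differences between high and low cells. All 7 proneural basic helix-loop-helix (bHLH) motifs, those of the factors that start neurogenesis, were higher in the highest quintile, with a median log2 fold of 0.065. Ascl2 moved most among them (0.13), NEUROD1 had 0.081 and Neurog1 0.041. All 5 ONECUT and CUX motifs were higher, with a median of 0.16. EBF1, the only motif of the EBF factors of early ganglion and amacrine cells, had a log2 fold of 0.14, and REST, the repressor of neuronal genes outside neurons, 0.068, and each was higher. Of 7 DLX and BARHL motifs, from homeodomain factors of ganglion and amacrine precursors, 4 were higher and 0 lower (median 0.020), as were 3 of 4 MEF2 motifs (median 0.028).

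Of the lists tied to dividing progenitors, those of TEAD, E2F and HES and HEY motifs were lower in the highest quintile. The homeodomain and SOX lists were not, though both lay lower in high than in low cells by posterior, as given below. All 4 TEAD motifs, those of the factors at the end of the Hippo pathway, were lower in the highest quintile, with a median log2 fold of −0.058 and TEAD2 at −0.099. Of 8 E2F family motifs 7 were lower (median −0.054), as were 4 of 6 motifs of the Notch targets HES and HEY with their activator RBPJ (median −0.027). Of 8 progenitor homeodomain motifs, such as those of RAX and PAX6, 2 were lower and 0 higher, and Pax6 had 0.023 (SE 0.084). That is a smaller share than the 34.0% of all motifs that were lower. The 7 motifs of progenitor SOX factors were mixed, 3 higher and 1 lower. In a separate list, not one of progenitors, 4 of 5 motifs of SOX classes C and D were lower (median −0.029). Of 3 NFI motifs 0 passed in either direction.

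The remaining lists moved as follows. GC-rich promoter motifs were lower for 8 of 11 SP and KLF (median −0.034) and 5 of 6 core promoter members (median −0.037). Photoreceptor K50 homeodomain motifs, named after the lysine of OTX and CRX factors that reads their core, were lower for 4 of 7 (median −0.019). Of 6 LIM homeodomain motifs 1 was higher, ISL2 with a log2 fold of 0.042. Of 9 TFAP2 motifs, from AP-2 factors of amacrine and horizontal cells, 2 were higher and 3 lower, and of 5 SCRT and SNAI motifs 2 and 2. Of 2 CTCF motifs 1 was lower. Lists of cells from outside the neural retina had small medians: pigment epithelium 0.0013 (1 of 4 higher), microglia −0.0085 (1 of 6 higher, 2 lower), endothelial and erythroid cells 0.022 (4 of 9 higher, 1 lower).

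Other POU factors have related motifs, which had smaller log2 folds. The POU4F motifs chose the quintiles, so this contrast was set by the ranking and is no result. Of the 13 other POU motifs, 4 were higher in the highest POU4F quintile and 6 lower, with a median log2 fold of −0.0079; POU3F3 had 0.054 and Pou5f1::Sox2 −0.070. Each had 1 mode in both libraries. Their list had a median ρ with the score of −0.030 and 0.062. The POU4F motifs had 0.69 to 0.84 with each other, which is a different measure, and they make up the score. POU3F4 and POU5F1B had identical counts, so the pair gives 1 measurement.

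Deciles of the score (10 equal groups), chosen after the data had been seen, showed where along the range the changes lay. POU4F1 shares over the lower 8 deciles lay between 0.0595% and 0.0668% in replicate 1 and between 0.0587% and 0.0666% in replicate 2. They reached 0.0793% and 0.0769% in the 9th decile and 0.0964% and 0.0925% in the 10th. The 9th decile straddled the boundary, with 65.2% and 44.8% of its cells in the upper component, and the 10th held upper cells alone.

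The proneural bHLH motifs had another course. Their mean log2 level, relative to the mean of the deciles, was 0.071 and 0.058 in the 9th decile and 0.035 and 0.037 in the 10th. Their summed share, which the most frequent members dominate, was 0.531% and 0.529% in the 9th decile and 0.528% and 0.529% in the 10th, so this order depended on weighting the motifs equally. The members also differed. Ascl2 did not fall, with 0.096 and 0.093 in the 9th decile and 0.101 and 0.105 in the 10th. NEUROD1 had 0.10 and 0.099 in the 9th decile and 0.028 and 0.055 in the 10th. NEUROD2 had 0.086 and 0.056 in the 9th decile and −0.0002 and 0.0070 in the 10th, while all its lower deciles lay between −0.055 and 0.028. EBF1 ran the opposite way, with 0.032 and 0.043 in the 9th decile and 0.18 and 0.17 in the 10th. ONECUT and CUX motifs had 0.087 and 0.053 in the 9th and 0.13 and 0.16 in the 10th. TEAD motifs were already low in the 9th, at −0.065 and −0.059, and stood at −0.070 and −0.077 in the 10th. E2F motifs were lowest in the 10th, at −0.018 and −0.023 in the 9th and −0.067 and −0.055 in the 10th, and SCRT1 likewise, at −0.083 and −0.047 and then −0.21 and −0.21. SP and KLF motifs were highest in the lowest decile, at 0.051 and 0.053, with −0.025 and −0.016 in the 10th.

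**Figure D4:**
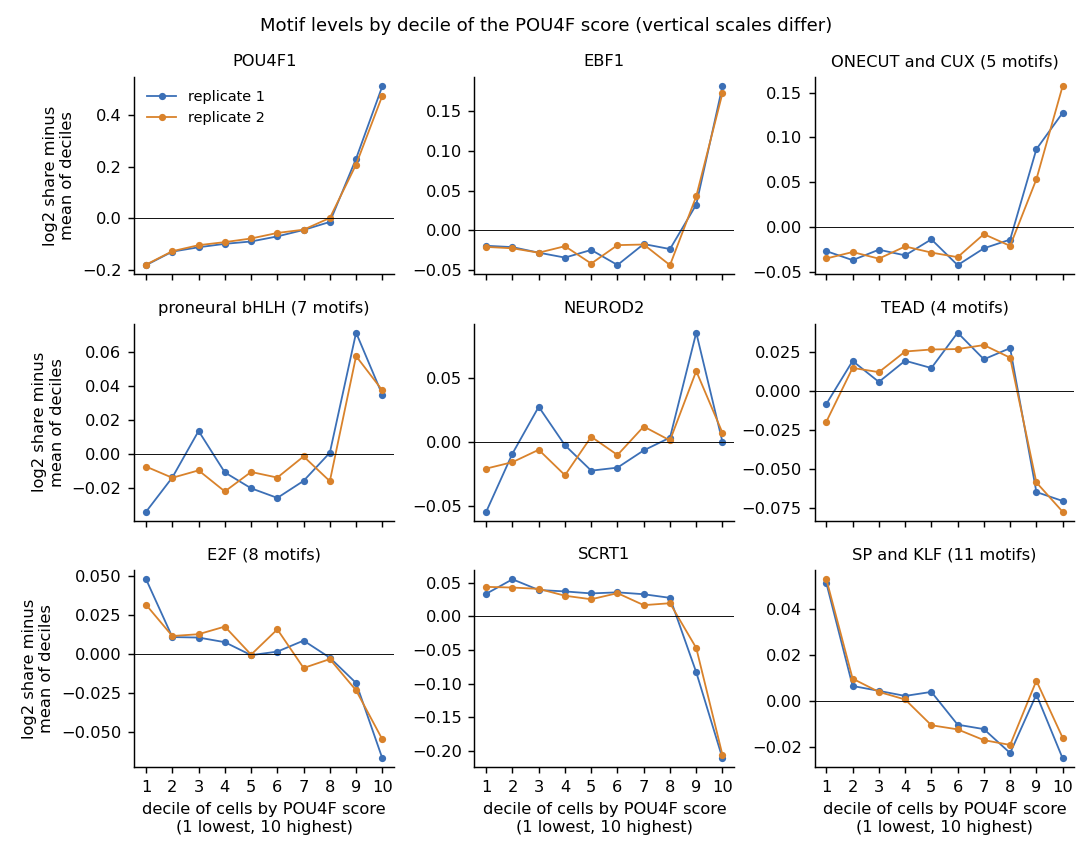
Motif levels (vertical axes: log2 share minus the mean of the deciles, with a scale for each panel) by decile of cells ranked by the POU4F score (horizontal axes, 1 lowest to 10 highest) in replicate 1 (blue) and replicate 2 (orange). EBF1 and SCRT1 change most at the 10th decile, TEAD motifs at the 9th, and the mean log2 level of the proneural bHLH motifs is highest at the 9th.

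Cells were also grouped by their posterior. Relative to low cells, proneural bHLH motifs lay 0.15 and 0.065 log2 units higher in intermediate cells and 0.055 and 0.052 higher in high cells. High cells differed from low ones by only −0.00992 and −0.00665 for SP and KLF motifs, against a median quintile fold of −0.034. They lay lower for DLX and BARHL (−0.0023 and −0.0088), LIM homeodomain (−0.029 and −0.033) and progenitor SOX motifs (−0.019 and −0.035). The quintile medians of these lists were 0.020, 0.0033 and 0.0076. Progenitor homeodomain motifs had −0.037 and −0.048, against a quintile median of −0.0046. Other POU motifs had −0.050 and −0.040, against a median of −0.0079. TEAD, E2F, ONECUT and CUX lists kept their direction. NEUROD1 had shares of 0.0443% and 0.0431% in low, 0.0513% and 0.0465% in intermediate, and 0.0465% and 0.0457% in high cells. EBF1 had 0.0210% and 0.0202% in low, 0.0216% and 0.0210% in intermediate, and 0.0234% and 0.0230% in high cells. REST had 0.140% and 0.139%, 0.144% and 0.144%, and 0.149% and 0.150%. TEAD1 had 0.0654% and 0.0641% in low, 0.0613% and 0.0604% in intermediate, and 0.0611% and 0.0603% in high cells. With 14 and 34 cells the intermediate class is small, and its depth differed: median totals were 3519151 and 3543861 in low, 2821264 and 1514707 in intermediate, and 3548951 and 3507593 in high cells. With a minimum of 1000000 counts the proneural difference between intermediate and low cells was 0.16 in replicate 1 (5 cells) but 0.0060 in replicate 2 (69 cells). With every cell thinned to 1000000 counts it was 0.15 (11 cells) and 0.083 (21 cells). A part of depth in this result was otherwise not tested.

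Within the upper component EBF1 followed the POU4F score closely, with a ρ of 0.58 over 147 cells and 0.47 over 153. In the lower component its ρ was −0.032 and −0.017. The proneural score had the opposite sign inside the upper component, −0.22 and −0.11, although it was positive over all cells at 0.23 and 0.19. With a minimum of 1000000 counts the ρ of EBF1 was 0.67 and 0.61, and that of the proneural score −0.26 and −0.071.

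To measure the POU4F motifs in kinds of cells that other motifs define, cells were ranked by the scores of 7 lists and by the cell total, and the counts of each quintile were summed and tested in the same way. No POU4F motif is in any of these lists. The 8 measures and 3 motifs made 24 comparisons, with p-values adjusted over all 579 motifs within each measure. ONECUT and CUX motifs gave the widest difference. POU4F1 had 0.0792% and 0.0780% in the highest quintile by these motifs, against 0.0635% and 0.0629% in the lowest. Both libraries' highest quintiles lay above both lowest. Its log2 fold was 0.32 (SE 0.0059, edgeR adjusted p = 6.58e-16), that of POU4F3 0.26 (SE 0.0048, edgeR adjusted p = 6.58e-16) and that of POU4F2 0.21 (SE 0.0060, edgeR adjusted p = 2.97e-13). All 3 motifs were thus higher, in a comparison where 33.0% of motifs were. The upper component held 46.6% and 42.2% of the cells of the highest ONECUT and CUX quintile and 3.37% and 0.952% of the lowest. The Wilson 95% intervals were 39.4% to 54.0% and 35.7% to 48.9% for the highest, and 1.55% to 7.16% and 0.262% to 3.41% for the lowest.

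By TEAD motifs the order was reversed. POU4F1 had 0.0638% and 0.0633% in the highest TEAD quintile, against 0.0761% and 0.0755% in the lowest. The log2 fold was −0.26 for POU4F1 (SE 0.0089, edgeR adjusted p = 9.46e-09), −0.21 for POU4F3 (SE 0.0074, edgeR adjusted p = 9.46e-09) and −0.15 for POU4F2 (SE 0.0074, edgeR adjusted p = 9.68e-08). All 3 were lower, as were 39.2% of all motifs. From the lowest to the highest TEAD quintile, upper-component cells made up 43.3%, 31.5%, 6.74%, 0% and 1.12% in replicate 1 and 39.5%, 27.1%, 4.29%, 0.476% and 1.42% in replicate 2. The 0 of 178 cells allows a share of up to 1.69%, taken as 3 cells of 178, or up to 2.11% by the Wilson 95% interval. Nearly all POU4F-high cells thus lay in the lower part of the TEAD range. TEAD scores had a ρ with the cell total of 0.15 and 0.17, and the median totals were 3722550 and 3615146 in the highest quintile and 3118819 and 3071900.5 in the lowest.

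By E2F motifs the change was smaller and gradual. The log2 fold between the highest and lowest quintile was −0.19 for POU4F1 (SE 0.0088), −0.16 for POU4F3 (SE 0.0079) and −0.14 for POU4F2 (SE 0.0087), with edgeR adjusted p-values of 4.67e-34, 1.68e-32 and 5.34e-25. These p-values were far below those by TEAD motifs although the folds were smaller and the SEs alike, so they do not rank the measures. Over the alternatives the adjusted p (edgeR or DESeq2) rose to 0.0032, 0.00084 and 0.0021. All 3 were lower, where 24.9% of motifs were. From the lowest to the highest E2F quintile the upper component made up 33.1%, 17.4%, 16.9%, 10.1% and 5.06% of cells in replicate 1 and 24.8%, 21.0%, 14.8%, 7.14% and 5.21% in replicate 2.

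By proneural bHLH motifs the 4th quintile was richest in POU4F-high cells, not the highest. From the lowest to the highest quintile the upper component made up 2.81%, 5.62%, 16.3%, 33.1% and 24.7% of cells in replicate 1 and 5.24%, 8.10%, 7.62%, 31.0% and 20.9% in replicate 2. POU4F1 had 0.0691% and 0.0681% in the highest quintile, against 0.0638% and 0.0642% in the lowest. The log2 folds of 0.10 for POU4F1 (SE 0.017), 0.089 for POU4F3 (SE 0.014) and 0.062 for POU4F2 (SE 0.014) were all called, with edgeR adjusted p-values of 0.00063, 0.00035 and 0.0028, where 30.7% of motifs were higher. Between the highest and the lowest decile by the same score the log2 folds were 0.084, 0.082 and 0.062 and not called.

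By photoreceptor K50 motifs the highest quintile stood apart, with 5.62% and 4.27% of its cells in the upper component, against 22.5% and 16.2% in the lowest. The log2 folds were −0.076 for POU4F1 (SE 0.011), −0.074 for POU4F2 (SE 0.0092) and −0.067 for POU4F3 (SE 0.0092), all 3 lower (edgeR adjusted p between 1.61e-05 and 5.24e-05), where 25.2% of motifs were. By progenitor SOX motifs the log2 folds were −0.099 for POU4F1 (SE 0.018), −0.069 for POU4F3 (SE 0.015) and −0.033 for POU4F2 (SE 0.012). All 3 were lower (edgeR adjusted p of 0.00017, 0.00055 and 0.024), where 41.1% of motifs were, but the call for POU4F2 held in 4 of 10 alternatives. Between deciles the log2 folds were −0.048 for POU4F1, −0.024 for POU4F3 and 0.025 for POU4F2, and none of the 3 was called, with edgeR adjusted p-values of 0.28, 0.49 and 0.49. For POU4F1 and POU4F3 the call held in 9 of 10 alternatives. Across cells, the SOX score had a ρ with the POU4F score of 0.14 and 0.015, the opposite sign to these folds. By SP and KLF motifs the log2 folds were −0.10, −0.092 and −0.11 for POU4F1, POU4F3 and POU4F2, all 3 lower (edgeR adjusted p between 1.48e-10 and 3.54e-09), where 39.2% of motifs were. In the separate libraries POU4F1 had −0.13 and −0.077 and POU4F2 −0.12 and −0.10, so the order of the members differed between replicates.

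**Figure D5:**
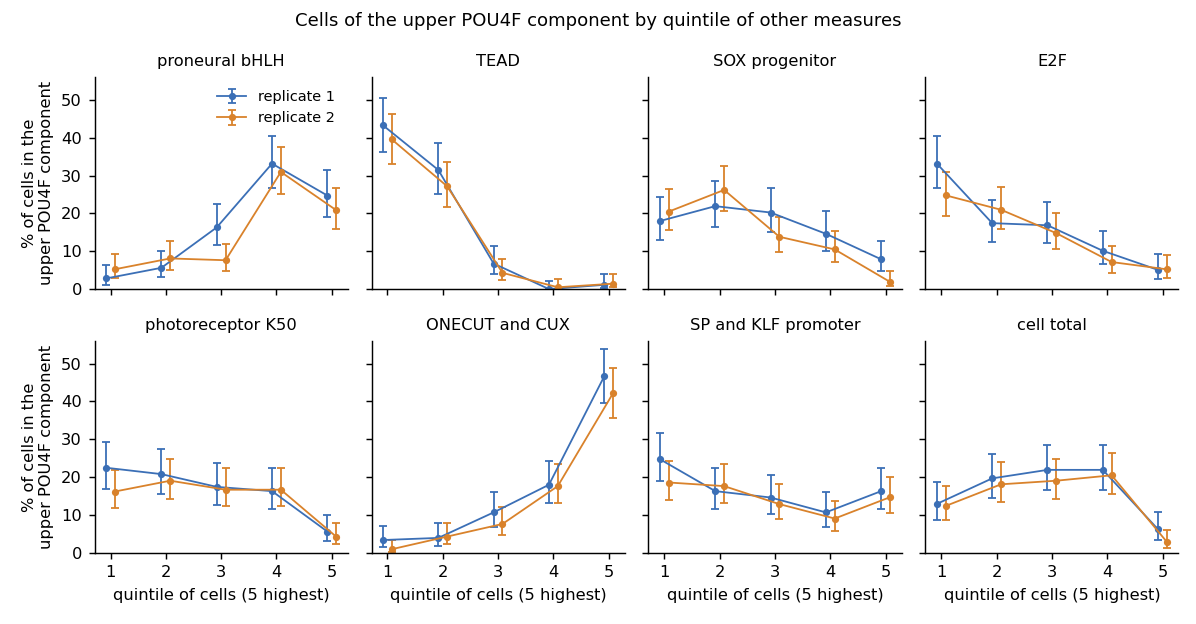
Share of cells in the upper POU4F component (vertical axis, %) by quintile of cells ranked by 7 motif lists and by the cell total (horizontal axes, 1 lowest to 5 highest); points are libraries (replicate 1 blue, replicate 2 orange) and bars Wilson 95% intervals, which cover counting error only. The share climbs to 46.6% and 42.2% with ONECUT and CUX motifs, drops to near 0 with TEAD motifs, and is highest in the 4th quintile by proneural bHLH motifs.

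Cell depth had its own relation. The highest quintile by total, with median totals of 6015671.5 and 6155524 counts, had 6.18% and 2.84% of its cells in the upper component, against 12.9% and 12.4% in the lowest quintile, with median totals of 1142686.5 and 743983.5. The 3 quintiles between held 19.7% to 21.9% in replicate 1 and 18.1% to 20.5% in replicate 2. Between the highest and the lowest quintile summed counts hardly moved: the log2 folds were −0.041 for POU4F1 (SE 0.0047), −0.025 for POU4F3 (SE 0.0051) and −0.0029 for POU4F2 (SE 0.0036). POU4F1 and POU4F3 were called lower (edgeR adjusted p of 0.00012 and 0.0029) and POU4F2 was not (0.50), where 34.5% of motifs were lower. In the separate libraries POU4F2 had 0.032 and −0.033 and POU4F3 0.0039 and −0.049, so their direction differed between replicates. In thinned cells POU4F1 had 0.0013 and POU4F3 0.0062. Doublets were not called, and the share of upper cells was 17.8% with a minimum of 1000000 counts, against 15.5% ± 1.4 (SD, n = 2) without it.

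POU4F1 and POU4F2 kept somewhat different company across cells. The correlation was higher with POU4F1 than with POU4F2 for Dmbx1 by 0.13 and 0.14, ONECUT1 by 0.13 and 0.099, TFAP2C by 0.071 and 0.12, TFAP2B by 0.069 and 0.12, and ONECUT2 by 0.086 and 0.096. ONECUT1 had a mean ρ of 0.39 with POU4F1, 0.36 with POU4F3 and 0.27 with POU4F2. In the other direction, ρ with POU4F1 was lower than with POU4F2 for Rfx1 (differences of −0.12 and −0.12), RFX4 (−0.11 and −0.11), RARA::RXRA (−0.11 and −0.11), Sox6 (−0.10 and −0.12) and Rarg (−0.13 and −0.079). Rfx1 and RFX4 are factors of cilia genes, and their shares had a ρ with the cell total of 0.25 and 0.16 for Rfx1 and 0.25 and 0.17 for RFX4. The part of depth in these differences was not tested.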

How the data were processed

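The deposited values were raw whole-number counts per motif and cell barcode, in matrices whose software version is 1.1.0 per the file headers; Cell Ranger and mm10 are named in the submitters' processing notes. How peaks were called and searched for motifs is not stated there. From these counts, shares of the cell total, excess CV, smoothed densities and mixtures were computed in Python 3.11.15 (scipy 1.17.1). The score used log2((count + 0.5)/total). Summed counts per library and quintile were tested with edgeR 4.0.16 (R 4.3.3): quasi-likelihood F test, TMM, library as a block, all 5 quintiles in the fit, Benjamini-Hochberg adjustment over 579 motifs and a threshold of 0.05. On simulated counts for the POU4F quintiles it called 66 of 100 motifs changed by 1.05-fold, 98 of 100 changed by 1.2-fold and 4 of 379 unchanged. The simulated motifs were drawn independently, with the spread fitted to these data and changes in the highest quintile only. Real motifs share cuts and peaks, so these rates need not carry over to the real counts.

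Cells are not replicates, so correlations carry no p. Named are the 3 members, the 10 motifs of highest and of lowest ρ, the 5 of widest ρ difference between POU4F1 and POU4F2 each way, the 5 called motifs of largest fold each way with at least 100 counts per cell, and list members as examples. Members, measures and the 24 lists were chosen with earlier results of these data known. A fold between quintiles of one score is relative to all motifs. Some motifs that these rules name are not reported here.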

Additional observations from a re-analysis of the deposited data

How the results depend on the processing

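Alternatives were a minimum of 1000000 counts, shared barcodes kept, the deepest 5% of cells left out, totals without POU motifs, thinned cells, scores from POU4F1 or POU4F2 alone, no TMM, DESeq2 1.42.0, motifs under 100 counts per cell left out, no replicate block, deciles, the middle of 3 depth classes, the total regressed out, and each library alone (values with no test). Of the values that answer a comparison 340 kept direction and call or moved within the spread, 17 moved, 13 lost their call, 1 gained one and 6 changed sign. The share of POU4F2 was 0.0476% without POU motifs in the total; that of POU4F3 was 0.0861% there, 0.0854% with the higher minimum, 0.0855% without the deepest cells and 0.0853% in thinned cells, and the excess CV of POU4F2 was 11.2% and 11.1% with the minimum and thinned. With the minimum, the upper component held 17.8% of cells and the mean ρ of EBF1 in it was 0.64. Without the replicate block, 53 motifs were higher and 63 lower in the highest POU4F quintile, against 144 and 197.

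Between deciles by proneural motifs the log2 folds were 0.084 for POU4F1, 0.062 for POU4F2 and 0.082 for POU4F3. By SOX motifs they were −0.048, 0.025 and −0.024; POU4F2 also lost its call with no TMM (−0.028), no replicate block (−0.033), DESeq2 (−0.028), the deepest cells left out (−0.019) and thinning (−0.011). By cell total, calls were lost without the block for POU4F1 (−0.041) and POU4F3 (−0.025) and with DESeq2 for POU4F3 (−0.023), signs turned in thinned cells (0.0013 for POU4F1, 0.0062 for POU4F3) and with no TMM for POU4F2 (0.0042), and POU4F2 was called at −0.017 with the minimum. In single libraries the values ran, by TEAD, between −0.260 and −0.257 for POU4F1; by K50 motifs, between −0.083 and −0.070 for POU4F2 and −0.075 and −0.065 for POU4F3; by ONECUT and CUX, between 0.318 and 0.323, 0.205 and 0.208, and 0.264 and 0.269 for POU4F1, POU4F2 and POU4F3; by cell total, between −0.033 and 0.032 for POU4F2 and −0.049 and 0.0039 for POU4F3. The causes were not tested.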

Other observations

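A few cells lay far below the main peak of the POU4F score. With a score under −0.3 there were 7 cells in replicate 1 and 9 in replicate 2. Their median totals were 1062124 and 711496 counts, against 3519151 and 3523871 over all kept cells. SP and KLF promoter motifs took 9.13% and 9.39% of their counts, against 7.49% and 7.45% over all kept cells. The lowest decile of the score had median totals of 2507435 and 2511531. The barcodes left out for low totals or as shallower copies had POU4F1 shares of 0.0692% and 0.0668%, against 0.0678% and 0.0666% over the summed counts of kept cells.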
